A study of Mus musculus with 10 samples.

Results

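Antioxidant, glutathione and NRF2 target genes were followed in the posterior wall of the left ventricle of mice that lack the melanocortin 4 receptor. The set was a list of 40 gene symbols, matched to the table through its RefSeq transcript IDs, and all 40 had a row of their own among the 24160 rows. The genes were divided by role into 6 lists, on superoxide and peroxide removal, the thioredoxin system, glutathione, NRF2 with its inhibitor and other inducible targets, metallothioneins and NADPH oxidase. The comparison was 6 MC4R-/- libraries against 4 WT libraries, all of the strain C57BL6/J at 30 weeks. Heterozygous parents had been crossed, the mice were housed at 24 °C, and poly(A) RNA of flash-frozen hearts was sequenced. The series title connects loss of the receptor with dilated cardiomyopathy, and the comparison here asks which antioxidant transcripts differed with genotype. Whether the libraries come from different animals is not stated in the labels, and p-values here describe only how these samples spread.

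Superoxide dismutases convert superoxide to hydrogen peroxide, which catalase, glutathione peroxidases and peroxiredoxins then remove. Glutathione peroxidases draw on reduced glutathione, and peroxiredoxins draw mostly on thioredoxin, so both routes end at NADPH. The transcription factor NRF2, encoded by Nfe2l2, is held low by KEAP1 in unstressed cells. When KEAP1 is oxidized or modified, NRF2 accumulates, pairs with small MAF proteins and binds the antioxidant response element of genes such as Nqo1, Gclm, Txnrd1 and Srxn1. Mitochondria are dense in heart muscle, and Sod2, Prdx3, Txn2 and Txnrd2 encode the mitochondrial enzymes of these routes. NADPH oxidases such as NOX4 are an enzymatic source of superoxide or peroxide.

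The core of the antioxidant response element, TGACNNNGC, was searched for because NRF2 binds this element in its targets. The search covered both strands of the 250 bases before each RefSeq start of a gene (GRCm38.p6), and a gene can have several starts. Of the 40 genes, 33 had at least 1 such window, 40 windows in all, and 7 of those windows, from 7 genes, held the core. Over all 32851 windows of the same length the share was 10.2%. The 7 stretches are shown 5′ to 3′ on the gene's strand, with the core, or its reverse complement, in capitals.
Gclm: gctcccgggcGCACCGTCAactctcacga
Txnrd1: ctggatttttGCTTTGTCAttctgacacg
Prdx1: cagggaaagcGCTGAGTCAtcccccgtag
Mt2: aaagggggtgTGACTCAGCgcggggggtg
Gsta3: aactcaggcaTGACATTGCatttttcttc
Nfe2l2: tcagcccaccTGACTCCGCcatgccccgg
Sod1: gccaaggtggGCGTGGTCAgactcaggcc
The windows lie at chr3:122245413-122245441 for Gclm, chr10:82859104-82859132 for Txnrd1, chr4:116685456-116685484 for Prdx1, chr8:94172529-94172557 for Mt2, chr1:21240454-21240482 for Gsta3, chr2:75704885-75704913 for Nfe2l2 and chr16:90220696-90220724 for Sod1. Nfe2l2 is on the minus strand and the other 6 are on the plus strand. The Txnrd1 window lies before a start inside the gene, whose span begins at 82833951. The Prdx1 and Mt2 matches also hold TGACTCA, the AP-1 letters, which overlap the core. With or without the core, these letters occurred in 6 of the 40 windows, from 5 genes, and in 4.46% of all windows. A match of letters is a description and not a shown binding site.

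Nqo1 and Cat, which are among the genes with the smallest p in the comparison, held no TGACNNNGC in this window, which says nothing of elements farther out. Their 250 bases before the start are shown for reference. Both genes are on the minus strand of GRCm38.p6, at chr8:107403206-107403455 for Nqo1 and chr2:103485154-103485403 for Cat, and no part is capitalized.
Nqo1: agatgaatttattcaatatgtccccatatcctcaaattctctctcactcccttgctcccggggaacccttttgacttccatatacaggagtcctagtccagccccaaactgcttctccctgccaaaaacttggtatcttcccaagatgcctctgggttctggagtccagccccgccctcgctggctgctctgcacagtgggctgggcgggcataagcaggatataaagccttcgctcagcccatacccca
Cat: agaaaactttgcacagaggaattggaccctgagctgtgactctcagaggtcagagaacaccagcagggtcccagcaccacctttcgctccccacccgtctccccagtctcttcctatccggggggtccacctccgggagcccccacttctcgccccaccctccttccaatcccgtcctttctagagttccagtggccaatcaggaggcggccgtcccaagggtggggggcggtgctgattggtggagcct

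Reads assigned to genes ran from 4145033 to 6425785 per library, and a normalized count is such a read count divided by a size factor of its library, with 1 read worth 0.871 to 1.38 normalized counts. Mc4r had at most 2.02 normalized counts in any library and therefore checked no label. None of the 40 genes lies on its chromosome, 18 (0 of 40). Ventricular markers were high in every library, with Myl2 at 48509 to 65057 in MC4R-/- and 59639.7 to 71446 in WT. A pair of libraries stood apart in transcripts of other cell types. WT replicate 2 summed to 1173 normalized counts over 9 T-cell markers, against 39.2 to 77.0 in MC4R-/- libraries and 67.8 to 88.5 in the other WT libraries. MC4R-/- replicate 5 summed to 3155 over 5 atrial markers, against 539 to 943 in the other MC4R-/- libraries and 505 to 1338 in WT.

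None of the 40 genes passed the test of genotype (limma, Benjamini-Hochberg adjusted over 14611 genes, threshold 0.05), where 0.459% of all genes passed. The lowest adjusted p belonged to Sod3 (0.0535) and Nqo1 (0.0558), both higher in MC4R-/-. By edgeR's quasi-likelihood test on the recovered reads 0 of 40 passed as well, against 0.411% of all genes. By DESeq2 on the same reads 3 of the 39 genes with an adjusted p passed, all higher in MC4R-/-, against 1.01% of all genes with one. These were Nqo1 (adjusted p = 0.015), Sod3 (0.0268) and Cat (0.0273).

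Without adjustment, 5 of 40 genes (12.5%) had a limma p below 0.05 and were higher in MC4R-/-, where 5.19% of all genes were, and 0 of 40 were lower, where 4.41% of all genes were. They were Sod3, Nqo1, Cat, Glrx and Gsta4. For 4 genes (10%), Sod3, Cat, Glrx and Msra, every MC4R-/- library lay above every WT library, which 1.34% of all genes did. No gene lay below WT in every MC4R-/- library (0 of 40, against 0.938% of all genes). Log2 fold changes were above 0 for 20 genes and below 0 for 20, with a median of 0.01 over the 40 genes and of -0.01 over all genes tested. For 37 of the 40 genes the log2 fold change was under 0.3 in size, and the median size was 0.10, against 0.12 over all genes tested.

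**Figure D1:**
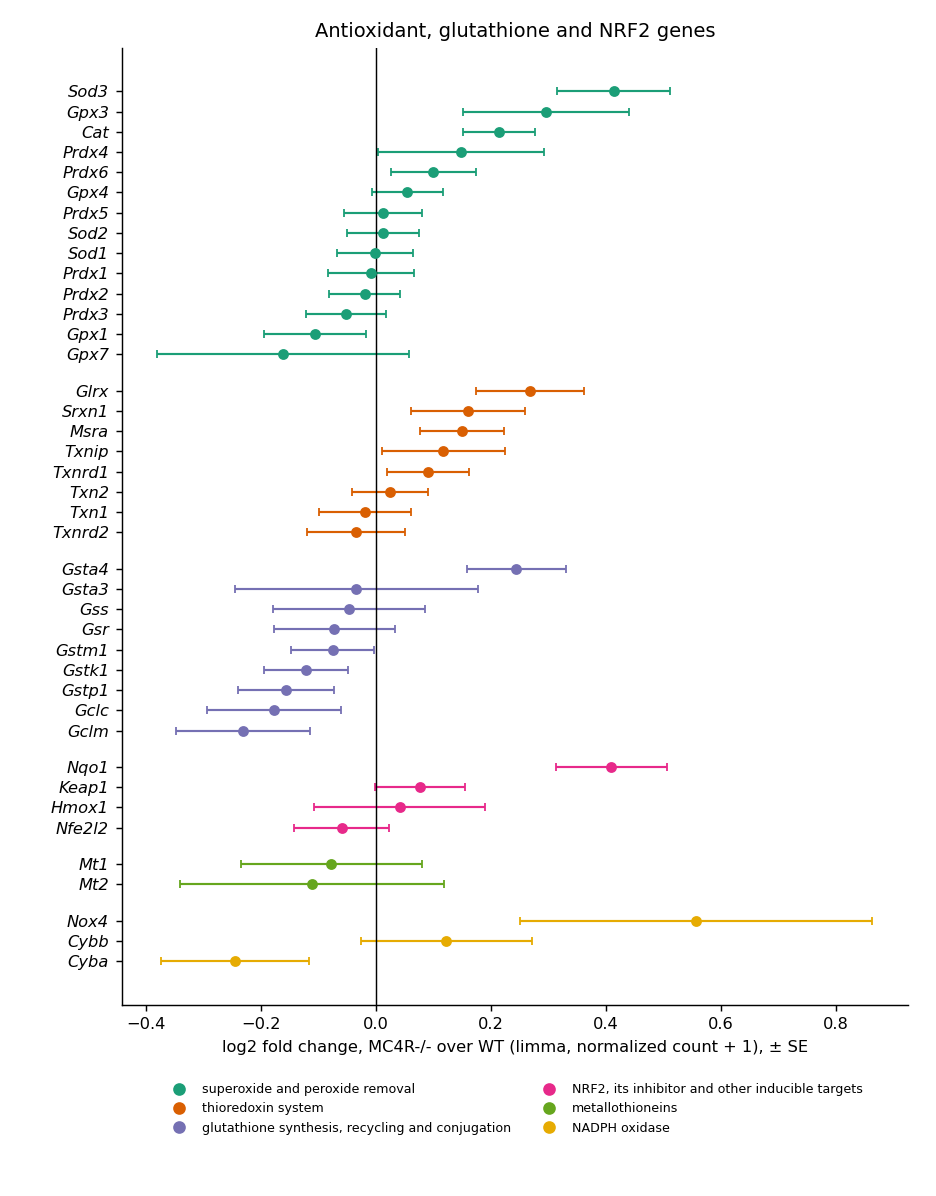
Log2 fold change of each of the 40 genes, MC4R-/- over WT, with its standard error from limma, grouped by role on the vertical axis. Nox4 at 0.56, Sod3 at 0.41 and Nqo1 at 0.41 lie farthest to the right, Nox4 with the widest bar, and none passed the threshold.

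Among the genes of superoxide and peroxide removal, the secreted superoxide dismutase and catalase stood above WT in every MC4R-/- library, while the cytosolic and mitochondrial dismutases and most peroxiredoxins had log2 fold changes near 0. Sod3 (chromosome 5, 52363804 to 52369738, GRCm38), the dismutase of the extracellular space, had 269 to 363 (median 286) normalized counts in the 6 MC4R-/- libraries, against 227, 215, 198 and 259.7 in WT replicates 1 to 4. The groups did not overlap, the closest values being 268.6 in MC4R-/- and 259.7 in WT. The log2 fold change was 0.41 ± 0.10 (SE; limma, adjusted p = 0.0535). Cat (chromosome 2, 103453904 to 103485153), the peroxisomal enzyme that splits hydrogen peroxide, had 2229 to 2453 (median 2379) in MC4R-/-, against 2038, 2216, 1851 and 2069 in WT. Here too the groups were apart, by a narrow gap between MC4R-/- replicate 5 and WT replicate 2, the same libraries that stood apart in atrial and T-cell transcripts. Its log2 fold change was 0.21 ± 0.06 (limma, adjusted p = 0.169).

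Both of those libraries were also left out together, a setting chosen with earlier results of these data known, because of their T-cell and atrial transcripts. For Cat they are the lowest MC4R-/- and the highest WT library, and for Nqo1 MC4R-/- replicate 5 is the lowest of its group, so leaving them out widens those gaps by construction. Sod3, Cat and Nqo1 then had adjusted p-values under the threshold (limma, adjusted p = 0.0455, 0.028 and 0.0145), in a fit that called 168 genes over the whole table. The log2 fold changes were then 0.42 for Sod3, 0.27 for Cat and 0.44 for Nqo1. Marker sums were also higher on average in MC4R-/- for the macrophage, fibroblast, endothelial, neutrophil, atrial and adipocyte lists. The first 2 of these are given here. The sum of 12 macrophage markers was 2576 to 3161 (median 2769.6) in MC4R-/- and 2150.0 to 2683 (median 2345) in WT, and that of 7 fibroblast markers was 5760.1 to 6652 (median 6339) in MC4R-/- and 4848 to 5895 (median 5520.3) in WT (exact two-sided permutation test over 210 splits, p = 0.019 for each, 0.0698 after adjustment over 11 marker lists). These lists were chosen with earlier results of these data known. Dcn made up most of the fibroblast sum, at 3754 of 6243 on average in MC4R-/- and 3495 of 5446 in WT. The log2 fold change was above 0 for 11 of the 12 macrophage and 7 of the 7 fibroblast markers. Of these, 1 fibroblast marker, the matrix proteoglycan gene Lum, passed, with 484 ± 38.3 in MC4R-/- and 333 ± 67.4 in WT (SD, n = 6 and 4), and no defining marker was at 0 in all libraries. The sum of 6 smooth muscle and pericyte markers, cells that also make Sod3, was 6811 to 7516 (median 7108) in MC4R-/- and 6544 to 8491 (median 7364) in WT, and most of it was Rgs5. Of these 6 markers 2 had a log2 fold change above 0 and none passed. The contractile gene Acta2 had 407 to 697 (median 443) in MC4R-/-, against 562, 699.6, 644 and 727 in WT (log2 fold change -0.45 ± 0.14, adjusted p = 0.283 by limma). Acta2 passed without MC4R-/- replicate 3 (limma, adjusted p = 0.0045). That is its highest MC4R-/- library, so leaving it out widens the gap by construction. Myh11, the smooth muscle myosin, had a log2 fold change of -0.26 ± 0.14. The part of these cells in the levels of Sod3 and Cat was not tested. In RNA of whole tissue, fewer cells of a type and less RNA per cell cannot be told apart.

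**Figure D2:**
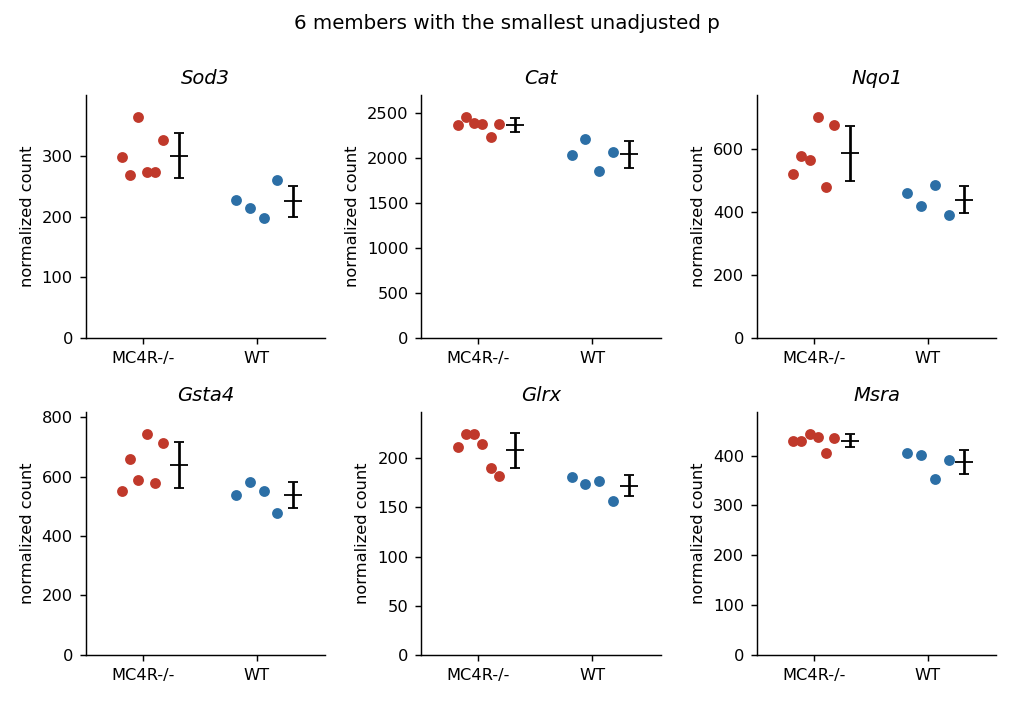
Normalized counts of Sod3, Cat, Nqo1, Gsta4, Glrx and Msra in each MC4R-/- library (6, left) and WT library (4, right), with the mean and SD beside the points. Sod3, Cat, Glrx and Msra show no overlap between the groups, while the lowest MC4R-/- libraries reach into the WT range for Nqo1 and Gsta4.

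Gpx3, the glutathione peroxidase of plasma, spread widely among the MC4R-/- libraries, with 1027 to 1718 (median 1341) in MC4R-/-, against 1194, 1122, 905 and 1167 in WT. MC4R-/- replicates 3 and 5 were the highest and replicates 1 and 4 lay inside the WT range, and the log2 fold change was 0.30 ± 0.14 (limma, adjusted p = 0.571). Prdx6, a peroxiredoxin that also has phospholipase activity, had 1255 to 1663 (median 1535) in MC4R-/-, against 1326, 1489, 1382 and 1379.6 in WT. The groups overlapped, with 4 of the 6 MC4R-/- libraries above all WT libraries and 1 below them. Gpx4, which reduces lipid peroxides in membranes, had the highest level per transcript length of the 40 genes, with 3694 ± 241 per kb in MC4R-/- and 3553 ± 137 per kb in WT (SD, n = 6 and 4). It had 3302 to 3838 (median 3388) normalized counts in MC4R-/-, against 3349.9, 3499.7, 3187 and 3384 in WT. Of the Gpx4 stretches of 50 bases, 34.7% also occur in transcripts of other genes, namely those of the pseudogene Gpx4-ps2, so reads could be split between them.

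The remaining genes of this role overlapped between the groups. The cytosolic dismutase Sod1 averaged 1423 ± 89.4 normalized counts in MC4R-/- and 1423 ± 41.6 in WT (SD, n = 6 and 4), and the mitochondrial dismutase Sod2 averaged 4497 ± 315 normalized counts in MC4R-/- and 4454 ± 208 in WT (SD, n = 6 and 4). Their log2 fold changes were -0.00 ± 0.07 and 0.01 ± 0.06. Of the Sod2 stretches of 50 bases, 21% also occur in transcripts of other genes. The peroxiredoxins Prdx1 and Prdx2 of the cytosol, the mitochondrial Prdx3 and Prdx5, which is found in several compartments, had log2 fold changes of -0.05 to 0.01. Prdx3 averaged 2023 ± 163 normalized counts in MC4R-/- and 2095 ± 147 in WT (SD, n = 6 and 4). Gpx1, the cytosolic glutathione peroxidase, averaged 268 ± 18.8 normalized counts in MC4R-/- and 289 ± 35.0 in WT (SD, n = 6 and 4), and the log2 fold change was -0.11 ± 0.09 (adjusted p = 0.761 by limma). The enzymes of the secretory pathway had low levels per length, Prdx4 with 97.8 and 89.6 per kb and Gpx7 with 24.0 and 27.8 per kb in MC4R-/- and WT. Neither passed the test (limma, adjusted p = 0.801 and 0.869).

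**Figure D3:**
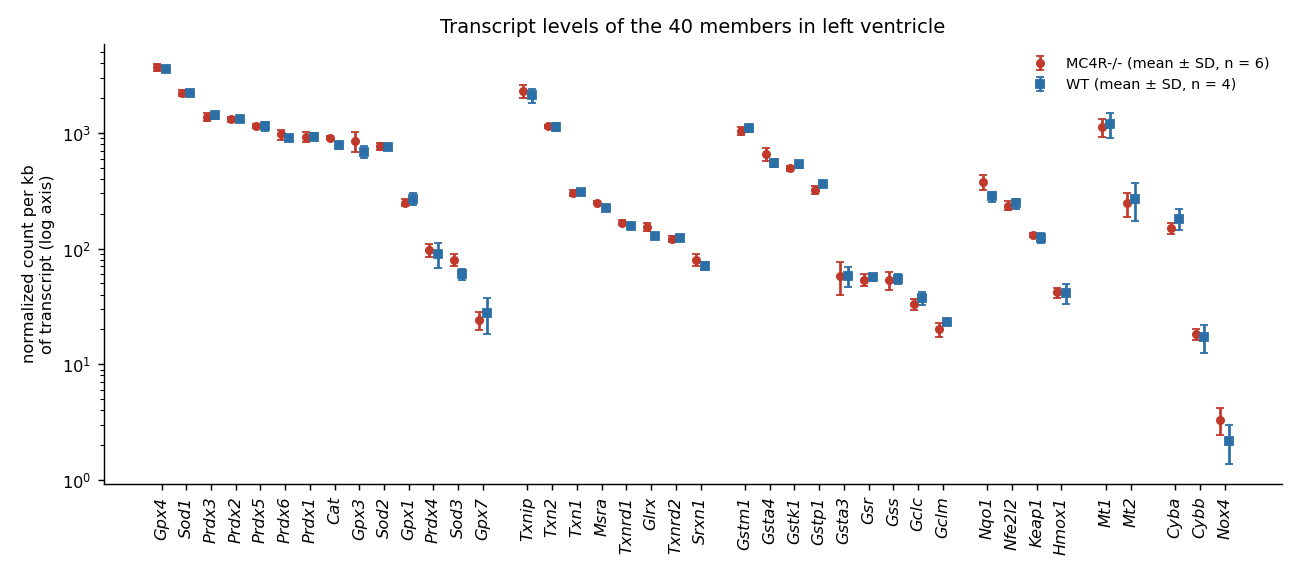
Normalized counts per kilobase of transcript (mean ± SD, log axis) of the 40 genes in MC4R-/- (circles, n = 6) and WT (squares, n = 4), ordered within each role. Levels ran from 3694 and 3553 per kb for Gpx4 in MC4R-/- and WT down to 3.29 and 2.19 for Nox4. Differences between the genes were far larger than those between the groups, with Sod3 at 80.3 and 60.2 in MC4R-/- and WT.

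In the thioredoxin list, 6 of 8 genes had a log2 fold change above 0, as did 7072 of all 14611 genes. None of the 8 passed. The list also holds Glrx, which acts on glutathione bound to proteins, so its counts are not of thioredoxin genes alone. The groups were separate for 2 of the 8, Glrx and Msra, each by less than 1 normalized count, where 1.34% of all genes lay above WT in every MC4R-/- library. Glrx (chromosome 13, 75839885 to 75850151), glutaredoxin, which removes glutathione from proteins, had 182 to 225 (median 213) normalized counts in MC4R-/-, against 181, 174, 177 and 157 in WT. All MC4R-/- libraries were above all WT libraries, though MC4R-/- replicate 6 and WT replicate 1 differed by less than 1 normalized count. The log2 fold change was 0.27 ± 0.09 (limma, adjusted p = 0.283). Msra (chromosome 14, 64122621 to 64455903), a methionine sulfoxide reductase, had 405 to 443 (median 432) in MC4R-/-, against 405, 401, 353 and 391 in WT. Its groups touched closely too, at 405.2 in MC4R-/- replicate 5 and 405 in WT replicate 1, and its log2 fold change was 0.15 ± 0.07 (limma, adjusted p = 0.521).

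Srxn1, sulfiredoxin, which restores overoxidized peroxiredoxins and is an NRF2 target, had 185 to 264 (median 228) in MC4R-/-, against 189.5, 202, 223 and 188 in WT. MC4R-/- replicate 5 was the lowest of all 10 libraries, so the groups overlapped, and the log2 fold change was 0.16 ± 0.10 (limma, adjusted p = 0.658). Txnrd1, the cytosolic thioredoxin reductase, had 488 to 559 (median 543) in MC4R-/-, against 500.3, 531, 509 and 468 in WT, again with overlap. Txnip, the inhibitor of thioredoxin and a glucose-responsive gene, had the highest level per length of the system, with 2283 ± 298 per kb in MC4R-/- and 2104 ± 289 per kb in WT. It had 5006 to 7310.0 (median 6616) normalized counts in MC4R-/-, against 5501, 6152, 6932 and 5071 in WT. MC4R-/- replicate 3 was the lowest of all 10 libraries, and the log2 fold change was 0.12 ± 0.11 (limma, adjusted p = 0.79). Thioredoxin 1 (Txn1), its mitochondrial counterpart Txn2 and the mitochondrial reductase Txnrd2 had log2 fold changes of -0.02, 0.02 and -0.04.

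Of the glutathione genes 8 of 9 had a log2 fold change below 0, as did 7539 of all 14611 genes. None passed the threshold. The exception was Gsta4, and by edgeR and DESeq2 Gsta3 stood just above 0 as well. Gsr, Gss and Gsta3 lay within their standard error of 0, and Glrx, which was above 0, was counted in the thioredoxin list. Gsta4 (chromosome 9, 78191966 to 78209349), the transferase that conjugates 4-hydroxynonenal, a product of lipid peroxidation, had 551 to 743 (median 624) in MC4R-/-, against 537, 583, 549.6 and 479 in WT. MC4R-/- replicates 1 and 5 lay within the WT range and the other 4 above it, and the log2 fold change was 0.24 ± 0.09 (limma, adjusted p = 0.288). Gclm, the modifier subunit of the enzyme that catalyzes the rate-limiting step of glutathione synthesis, had 86.2 to 127 (median 114) in MC4R-/-, against 138, 129, 133 and 122 in WT. The highest 2 MC4R-/- libraries reached into the WT range, and the log2 fold change was -0.23 ± 0.12 (limma, adjusted p = 0.544). Its catalytic partner Gclc averaged 113 ± 12.1 normalized counts in MC4R-/- and 128 ± 16.7 in WT (SD, n = 6 and 4), a log2 fold change of -0.18 ± 0.12 (adjusted p = 0.685 by limma).

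Gstp1, the pi-class transferase, had 241 to 303 (median 262) in MC4R-/-, against 315, 295, 288 and 281 in WT. Of its stretches of 50 bases, 33.7% are shared with Gstp2, which had 25.5 and 31.0 normalized counts on average in MC4R-/- and WT. Gstk1, the kappa-class enzyme of mitochondria and peroxisomes, had 433 to 488 (median 457) in MC4R-/-, against 472, 497, 545 and 481 in WT, and both transferases overlapped between the groups. Gstm1, a mu-class enzyme, had the highest level per length of the role, with 1044 ± 88.3 per kb in MC4R-/- and 1099 ± 78.9 per kb in WT. It had 1223 to 1479.7 (median 1320.3) normalized counts in MC4R-/-, against 1327, 1548, 1347 and 1445 in WT, and shares 18.9% of its stretches with other genes. Glutathione reductase (Gsr), glutathione synthetase (Gss) and Gsta3 had log2 fold changes of -0.07 ± 0.11, -0.05 ± 0.13 and -0.03 ± 0.21. Gsta3 spread from 38.2 to 79.0 within the MC4R-/- libraries alone.

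Among NRF2, its inhibitor and the inducible targets, the quinone reductase Nqo1 had the largest log2 fold change of the 4 genes. Nqo1 (chromosome 8, 107388225 to 107403205) had 479 to 699.7 (median 570.5) normalized counts in MC4R-/-, against 459.9, 418, 486 and 389 in WT. MC4R-/- replicate 5, at 479.1, was below WT replicate 3, at 485.9, and the other 5 MC4R-/- libraries were above all WT libraries. The log2 fold change was 0.41 ± 0.10 (limma, adjusted p = 0.0558). Without MC4R-/- replicate 5 Nqo1 and Sod3 passed, with adjusted p = 0.0128 and 0.0429 (limma), while leaving out any other library gave up to 0.221 for Nqo1 and 0.166 for Sod3.

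The regulators themselves overlapped between the genotypes and did not pass the test. Nfe2l2, which encodes NRF2, had 397 to 514 (median 468) in MC4R-/-, against 469, 439.6, 547 and 468 in WT. Keap1 had 385 to 443 (median 415) in MC4R-/-, against 404, 444, 371 and 356 in WT. Their log2 fold changes were -0.06 ± 0.08 and 0.08 ± 0.08 (limma, adjusted p = 0.874 and 0.816), and transcript levels do not report the protein amount of NRF2, which KEAP1 sets. Hmox1, heme oxygenase 1, had 55.7 to 74.1 (median 65.8) in MC4R-/-, against 69.3, 76.7, 65.1 and 46.7 in WT, where replicate 4 was the lowest of all libraries. The 7 genes whose windows held the core, listed with their sequences above, had log2 fold changes of -0.23 for Gclm to 0.09 for Txnrd1, the 1 value above 0, and none of the 7 passed. Sod1, Prdx1, Gsta3, Mt2 and Nfe2l2 lay within their standard error of 0. Each of them changed sign when certain single libraries were left out, so they carry no direction.

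**Figure D4:**
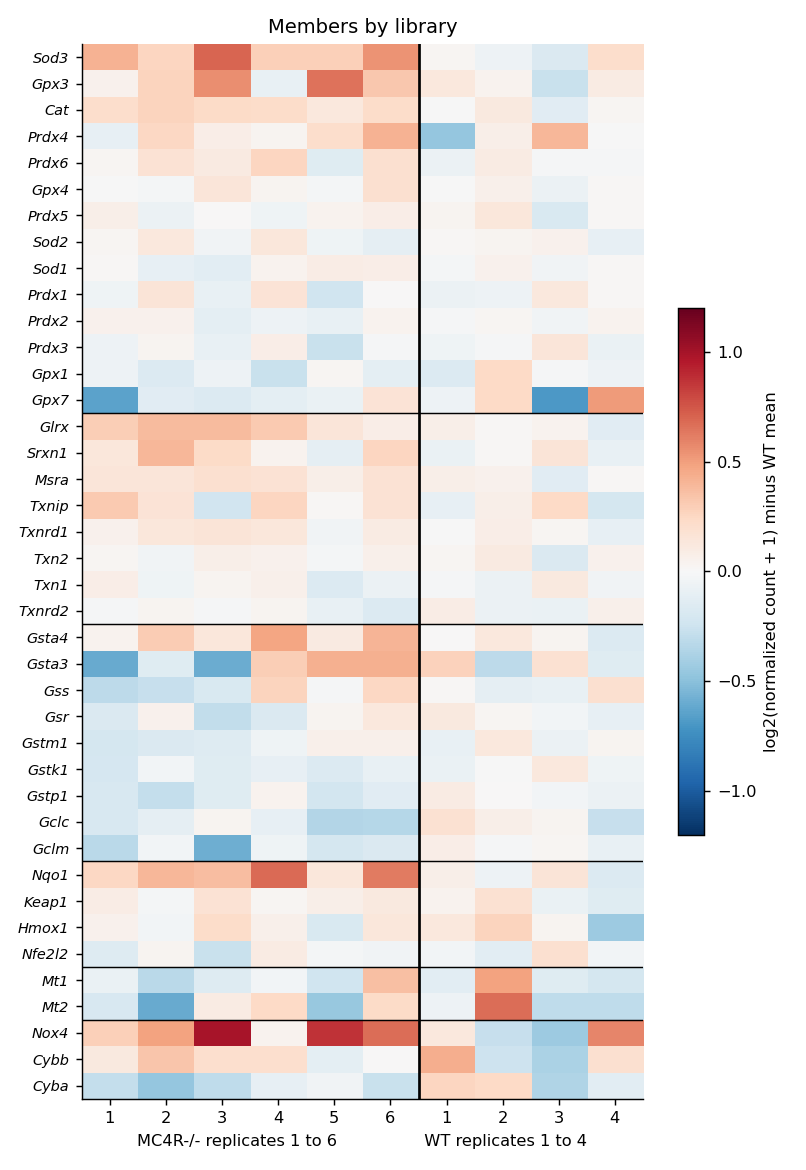
Log2(normalized count + 1) of each gene minus its WT mean, in MC4R-/- replicates 1 to 6 (left of the line) and WT replicates 1 to 4 (right), genes in rows grouped by role. Sod3, Cat, Glrx and Nqo1 are red across the MC4R-/- columns, and Mt1 and Mt2 are red in WT replicate 2. Values ran from -0.69 to 0.99.

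Metallothioneins bind zinc and copper and scavenge oxidants. Mt1 had 509 to 822 (median 589) in MC4R-/-, against 584, 890.0, 579 and 552 in WT. Mt2 had 86.8 to 157 (median 129) in MC4R-/-, against 127, 211, 107 and 107 in WT. Both genes were highest of all libraries in WT replicate 2, and MC4R-/- replicates 4 and 6 held the top 2 values of their group for both. The log2 fold changes were -0.08 ± 0.16 for Mt1 and -0.11 ± 0.23 for Mt2 (limma, adjusted p = 0.924 and 0.926). Without WT replicate 2 they changed sign, to 0.08 and 0.11, so no direction is given. That library also held the T-cell transcripts, whose part in the metallothionein level was not tested.

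None of the 3 NADPH oxidase genes passed the test. Cyba, the p22phox subunit that stabilizes several oxidases, had 88.8 to 119.5 (median 101) in MC4R-/-, against 147, 145, 95.5 and 113 in WT. Cybb, the catalytic NOX2 subunit of phagocytes, had 72.9 to 100.2 (median 88.8) in MC4R-/-, against 108, 66.8, 60.9 and 90.7 in WT. The 2 subunits of that oxidase had log2 fold changes of -0.25 ± 0.13 for Cyba and 0.12 ± 0.15 for Cybb (limma, adjusted p = 0.575 and 0.852). Cybb lay within its standard error of 0 and could change sign when a single library was left out, so it carries no direction. Nox4, the constitutively active oxidase of heart and vessels, had 8.14 to 16.6 (median 12.2) in MC4R-/-, against 8.66, 6.32, 5.54 and 12.3 in WT. Its log2 fold change of 0.56 ± 0.31 rests on few reads, with overlapping groups and the largest error of the 40 genes (adjusted p = 0.604 by limma). Cybb is expressed mainly by phagocytes, whose marker sum is given with Sod3.

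Of 142 other genes in 8 lists drawn around the same pathways, 131 were tested, 0 rose and 1 fell, the ferritin light chain gene Ftl1, a share near the 0.459% called among all genes. Ftl1 (chromosome 7, 45457944 to 45459886), which stores iron and is a known NRF2 target, had 1550.4 to 1904 (median 1806) in MC4R-/-, against 2165, 2389, 2007 and 2269 in WT. Every MC4R-/- library was below every WT library. Ftl1 fell, with a log2 fold change of -0.33 ± 0.07 and an adjusted p of 0.0279 by limma, and it lost its call without MC4R-/- replicates 1, 2 or 4 or WT replicates 1, 2 or 4 (adjusted p up to 0.136). Of its stretches of 50 bases, 50.9% also occur in other transcripts, mainly the pseudogene Ftl1-ps1. The heavy chain Fth1 averaged 8913 ± 601 normalized counts in MC4R-/- and 9156 ± 486 in WT (SD, n = 6 and 4), a log2 fold change of -0.04 ± 0.06 (adjusted p = 0.886 by limma).

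The other NRF2 target genes stood on both sides of 0, with 16 of 23 tested above it, as were 7072 of all 14611 genes. Me1 (chromosome 9, 86581363 to 86695914), the cytosolic malic enzyme that yields NADPH, had 1433 to 1638 (median 1536) in MC4R-/-, against 1184, 1380.2, 1288 and 1206 in WT. The groups were separate, and the log2 fold change was 0.28 ± 0.07 (limma, adjusted p = 0.0619; DESeq2, adjusted p = 0.00559). Of its stretches, 22.9% are shared with other transcripts. Without WT replicate 2 Me1 passed by limma, with adjusted p = 0.017. WT replicate 2 is the highest WT library for Me1, so leaving it out widens the gap by construction. The NADPH enzymes of the pentose phosphate route, G6pdx and Pgd, had log2 fold changes of 0.20 ± 0.15 and 0.10 ± 0.10.

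**Figure D5:**
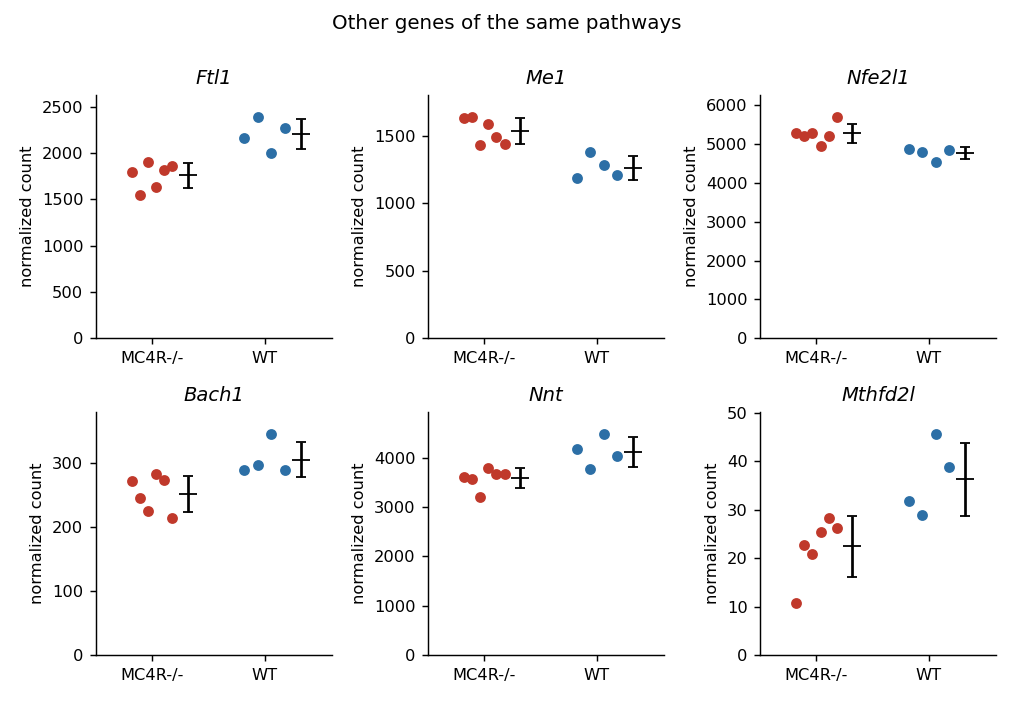
Normalized counts of Ftl1, Me1, Nfe2l1, Bach1, Nnt and Mthfd2l in each MC4R-/- library (6, left) and WT library (4, right), with the mean and SD beside the points. Ftl1, Bach1 and Mthfd2l are lower and Me1 and Nfe2l1 higher in all MC4R-/- libraries than in all WT libraries, and of these genes Ftl1 passed the threshold.

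Among 12 other NRF2 regulators 0 passed by limma (edgeR 0, DESeq2 0, with 2 whose unadjusted limma p was below 0.05, as for 9.6% of all genes in either direction). Both had separate groups, 1 above WT and 1 below, where 1.34% and 0.938% of all genes lay so. Bach1, a repressor that competes for the same elements, had 214 to 283 (median 259) in MC4R-/-, against 289.6, 297, 346 and 289 in WT. Nfe2l1, the NRF2 relative that drives proteasome genes, had 4947 to 5689.5 (median 5253) in MC4R-/-, against 4882, 4790.5, 4528 and 4837 in WT. The log2 fold changes were -0.28 ± 0.09 and 0.15 ± 0.06 (limma, adjusted p = 0.255 and 0.354). Sqstm1, whose product p62 binds KEAP1, averaged 2714 ± 112 normalized counts in MC4R-/- and 2934 ± 227 in WT (SD, n = 6 and 4), with a log2 fold change of -0.11 ± 0.06.

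None of the 34 tested glutathione genes outside the set passed (limma 0, edgeR 0, DESeq2 0, with 6 whose unadjusted limma p was below 0.05, against 9.6% of all genes). Oplah, which recycles 5-oxoproline, averaged 558 ± 35.1 normalized counts in MC4R-/- and 426 ± 105 in WT (SD, n = 6 and 4), and Chac1, which degrades glutathione and is a stress-response gene, averaged 19.8 ± 6.31 normalized counts in MC4R-/- and 35.1 ± 12.0 in WT (SD, n = 6 and 4). Their log2 fold changes were 0.42 ± 0.12 and -0.80 ± 0.25 (limma, adjusted p = 0.172 and 0.198). WT replicate 2 was the highest library for Chac1, and Oplah passed when WT replicate 1 was left out (limma, adjusted p = 0.0117). WT replicate 1 is the highest WT library for Oplah, so leaving it out widens the gap by construction. Of 22 other thioredoxin, glutaredoxin and methionine sulfoxide genes 0 passed by limma, edgeR or DESeq2, with 2 at an unadjusted p below 0.05, which is near the share of all genes. The sestrin Sesn1, a FoxO and p53 target, averaged 991 ± 177 normalized counts in MC4R-/- and 1281 ± 90.6 in WT (SD, n = 6 and 4), and Arrdc4, a relative of Txnip, averaged 119 ± 19.8 normalized counts in MC4R-/- and 95.0 ± 5.93 in WT (SD, n = 6 and 4). The log2 fold changes were -0.39 ± 0.11 and 0.31 ± 0.12 (limma, adjusted p = 0.182 and 0.382), and Sesn1 passed without MC4R-/- replicate 4 (0.0355). MC4R-/- replicate 4 is the highest of its group for Sesn1, so leaving it out also widens the gap by construction.

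Genes of mitochondrial NADPH supply had a log2 fold change below 0 in 8 of 9 cases, as did 7539 of all 14611 genes. None passed (0 by limma, edgeR or DESeq2), and 3 had an unadjusted p below 0.05, against 9.6% of all genes. Nnt, the transhydrogenase that makes NADPH from the proton gradient, had 3196 to 3779 (median 3630.2) in MC4R-/-, against 4183, 3768, 4480.0 and 4024 in WT. MC4R-/- replicate 4 just reached above the lowest WT library, and the log2 fold change was -0.20 ± 0.06 (limma, adjusted p = 0.216). C57BL/6J mice are known to carry a deletion of several Nnt exons. Values per gene cannot show exons, or whether the transcript yields a working enzyme in this strain. Mthfd2l, a mitochondrial folate enzyme, had 10.8 to 28.4 (median 24.1) in MC4R-/-, against 31.7, 28.9, 45.7 and 38.7 in WT, a log2 fold change of -0.71 ± 0.24 (adjusted p = 0.255 by limma). Idh2, the mitochondrial isocitrate dehydrogenase that uses NADP, averaged 13692 ± 1167 normalized counts in MC4R-/- and 13973 ± 534 in WT (SD, n = 6 and 4). Of 11 tested oxidase subunits and partners 0 passed by limma, edgeR or DESeq2, and 0 had an unadjusted limma p below 0.05. Ncf1 and Ncf4, cytosolic subunits of the phagocyte oxidase, had log2 fold changes of 0.36 ± 0.19 and -0.70 ± 0.38 (limma, adjusted p = 0.567 and 0.591). Rac2, a GTPase of blood cells, had 238 normalized counts in WT replicate 2, against 16.3 to 32.3 in MC4R-/- libraries and 15.2 to 34.6 in the other WT libraries.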

How the data were processed

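Polyadenylated RNA of 10 left ventricle samples was sequenced from stranded libraries, per the labels' protocols. The submitters' processing notes list Cuffdiff 2.2.1.3, Cuffnorm 2.2.1.1, Cufflinks 2.2.1, Bowtie2 and TopHat2 2.1.0, with the build mm10. Their roles, the annotation and the strand setting are not given in the sources used here, so reads of overlapping antisense genes may be included.

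The deposited signal values are read counts per gene that the authors scaled with 1 factor per library. This follows from the values, of which 99.99 to 100% per library gave whole reads within 0.1. RefSeq IDs were matched to symbols and coordinates of GRCm38.p6, with 1 symbol in 23645 of 24160 rows. Lengths are means over the matched GENCODE M21 transcripts.

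Both genotypes were compared in R 4.3.3 by limma 3.58.1 (trend and robust, no covariates) on log2(normalized count + 1), over the 14611 genes with a mean of at least 1, which took in all 40 genes. P-values are two-sided and adjusted by Benjamini-Hochberg over all genes tested, with a threshold of 0.05. Fold changes on this scale understate changes of low genes. Recovered reads were tested with edgeR 4.0.16 and DESeq2 1.42.0 as alternatives, beside other pseudocounts, filters, scalings, library weights, a replicate block and left-out libraries. The fit was tested on simulated data. Sequence sharing is the percent of a gene's stretches of 50 bases found in GENCODE M21 transcripts of other genes.

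The members and all lists were chosen with earlier results of these data known. All 40 genes may be named, and from each other list those past the threshold and the 2 with the smallest unadjusted p. Values per library are given for up to 4 genes of each role with the smallest p and for the one highest per kilobase. Fth1, Sqstm1, Idh2, Rac2, Gstp2, G6pdx, Pgd and Mtf1 were chosen after their values were seen.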

Additional observations from a re-analysis of the deposited data

Results flagged for a closer look

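Single libraries lay far from the rest of their group in 4 of 112 tests of 1 gene in 1 group, where chance marks about 1 in 20 (5%). Mt1 was 822 normalized counts in MC4R-/- replicate 6, with the other MC4R-/- libraries at 509 to 625.5. In WT replicate 2 Mt1 was 890.0, with the other WT libraries at 552 to 584. Nnt was 3196 in MC4R-/- replicate 3, below the 3568 to 3779 of the other MC4R-/- libraries. Bach1 was 346 in WT replicate 3, above the 289 to 297 of the other WT libraries.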

How the results depend on the processing

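The number of the 40 genes called was 0 under the design used and under 17 of 23 alternatives. It was 1 (Nqo1) after quantile normalization, with library weights and over replicates 1 to 4 alone, and 3 (Nqo1, Sod3 and Cat) by DESeq2 and without WT replicate 2 and MC4R-/- replicate 5 together. Leaving out 1 library gave 0 to 2, the 2 without MC4R-/- replicate 5. Nqo1 was called in 6 alternatives, Sod3 in 3 and Cat in 2, with log2 fold changes above 0 throughout. The alternatives reuse the same libraries, so these counts are not independent support. MC4R-/- replicate 5, the lowest of its group for Nqo1 and Cat, is absent from the fits over replicates 1 to 4, without it and without both libraries. Of the other pathway genes 1 was called. The count was 0 without a filter on low values and without limma's trend and robust steps, and 2 (Ftl1 and Me1) after quantile normalization, with library weights, by DESeq2 and without both libraries. It was 0 to 1 when 1 library was left out, the gene then being Sesn1 without MC4R-/- replicate 4, Oplah without WT replicate 1, Me1 without WT replicate 2 and otherwise Ftl1. For Sesn1, Oplah and Me1 the library left out is the one of its group nearest the other group, which widens the gap by construction. Over all genes 67 were called, against 0 without the trend and robust steps (1290 of all genes and 7 of the 40 then had an unadjusted p below 0.05), 118 with library weights, 118 by DESeq2, 168 without both libraries and 26 (without WT replicate 4) to 117 (without WT replicate 2) without 1 library. The cause of these shifts was not tested. The scalings tried moved the median log2 fold change of all genes by less than 0.1. Samples with the same replicate number did not deviate together (correlations of -0.06 to -0.0035 over genes). These values show no pairing by number, but a correlation over all genes cannot exclude one. With a replicate block 52 genes were called in all, 0 of the 40 genes and 1 other pathway gene, Angptl4, and Ftl1 was not (log2 fold change -0.36, adjusted p = 0.146). Over the same 8 libraries without the block, a setting chosen after seeing the data, 70 genes were called in all. Of the values for single named genes, 1213 kept direction and side of the threshold, 19 newly passed, 9 no longer passed, all of these for Ftl1, and 44 values of genes that were not called changed sign. Precision at low levels, as for Nox4 and Gpx7, is limited by the read number.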

Other observations

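Metal handling and glucocorticoid-responsive genes were examined beside the metallothioneins. Of 10 tested metal handling genes 0 passed by limma, edgeR or DESeq2, with 0 at an unadjusted p below 0.05. The zinc importer Slc39a14 averaged 676 ± 64.2 normalized counts in MC4R-/- and 612 ± 53.8 in WT (SD, n = 6 and 4), the copper importer Slc31a1 281 ± 27.6 normalized counts in MC4R-/- and 262 ± 29.7 in WT (SD, n = 6 and 4), and the metal-responsive factor Mtf1 177 ± 12.9 normalized counts in MC4R-/- and 176 ± 11.8 in WT (SD, n = 6 and 4). Of 10 glucocorticoid-responsive genes 0 passed by limma, edgeR or DESeq2, with 3 at an unadjusted p below 0.05, against 9.6% of all genes. Angptl4, an inhibitor of lipoprotein lipase that PPARs also induce, had 157 to 398 (median 225) in MC4R-/-, against 165, 154, 76.1 and 85.4 in WT. WT replicates 3 and 4 were lowest and MC4R-/- replicate 1 highest (log2 fold change 0.99 ± 0.34, limma, adjusted p = 0.369). With a replicate block, though samples of the same number showed no shared deviation, the adjusted p of Angptl4 was 0.000305 (limma). Klf9, a Krüppel-like factor, averaged 665 ± 97.8 normalized counts in MC4R-/- and 819.8 ± 92.6 in WT (SD, n = 6 and 4), with a log2 fold change of -0.31 ± 0.10 and an adjusted p of 0.249 by limma.

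The ranges of the remaining marker sums overlapped between the groups, as did those of the macrophage and fibroblast sums. The sum of 7 endothelial markers was 8554 to 10006 (median 9753) in MC4R-/- and 9093 to 9834 (median 9137) in WT. The sum of the erythroid markers, cells rich in Prdx2, Cat and Gpx1, was 2806 to 5203 (median 3764) in MC4R-/- and 3000.5 to 5632 (median 3566) in WT. The sum of 9 cardiomyocyte markers was 495320.0 to 546876 (median 518290.0) in MC4R-/- and 511830.0 to 556015 (median 540177) in WT. B-cell markers summed to 7.12 to 18.2 (median 12.1) in MC4R-/- and 10.6 to 24.4 (median 11.5) in WT, neutrophil markers to 13.4 to 58.6 (median 35.4) in MC4R-/- and 22.6 to 40.1 (median 25.6) in WT and adipocyte markers to 0 to 22.3 (median 4.54) in MC4R-/- and 0 to 8.12 (median 6.89) in WT. T-cell markers gave an exact two-sided permutation p of 0.00952 (0.0698 after adjustment over 11 lists) where 0 of 9 markers had a log2 fold change above 0. WT replicate 2 held 1173, and the other WT libraries, at 67.8 to 88.5, also lay above 5 of the 6 MC4R-/- libraries.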
